A study of Homo sapiens with 6 samples.

Results

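The genes of the nuclear pore and of the receptors that carry cargo through it were followed in RNA of PC-3, a line of human cells that derives from a bone metastasis of prostate cancer. They were taken by name from the protein-coding genes of the deposited count table. The names were those of nucleoporins numbered NUP, of karyopherins (KPNA and KPNB), importins (IPO), exportins (XPO), transportins (TNPO 1 to 3) and RANBP 1 to 3, together with RAN, RANGAP1, RCC1, TPR, POM121, NDC1, AAAS and CSE1L. This gave 58 genes of 30651 listed. The series compares an MTA1 group of 3 libraries with a control group, Ctrl, of 3 libraries. Columns of the MTA1 group are headed shMTA1, as is usual for a short hairpin RNA against that gene, and those of Ctrl NC. The labels name lentivirus and the screening of stable clones for all libraries, and give no number of hairpins or clones, no treatment time and no word on separate cultures. Each p-value hence reflects how much these 6 libraries vary, and that variation may be technical.

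Nuclear pores are channels through the nuclear envelope, built from several copies of each nucleoporin arranged in stacked rings. A scaffold of Y-shaped complexes and an inner ring holds the pore open, membrane proteins anchor it, and nucleoporins rich in phenylalanine-glycine repeats fill the channel. Importins and exportins bind cargo, pass the channel by touching those repeats and take their direction from the small GTPase Ran, which is loaded with GTP inside the nucleus by RCC1 and made to hydrolyse it outside by RANGAP1.

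MTA1, the NuRD subunit after which the group is named, had 17.3, 18.0 and 16.7 CPM in the MTA1 replicates, against 38.4, 40.6 and 41.1 CPM in the Ctrl replicates, so the group is the one with less MTA1 message (log2 fold change -1.21 ± 0.054, adjusted p = 4.3e-13). Levels are in CPM, the TMM-scaled share of a library's counts, and log2 fold changes are the MTA1 group over Ctrl ± SE. The libraries held 29909172 to 30938820 counts in the MTA1 group and 31726013 to 33849262 in Ctrl. The epithelial keratins KRT8 and KRT18 together stood at 2690 to 2940 CPM in the MTA1 group and 3110 to 3290 CPM in Ctrl, and KLK3, which PC-3 cells lack, had no read in the MTA1 group and 1 read in Ctrl. Summed markers of leukocytes reached at most 1.51 CPM in the MTA1 group and 2.11 CPM in Ctrl, and those of HEK293 packaging cells at most 0.853 CPM in the MTA1 group and 1.46 CPM in Ctrl. Summed fibroblast markers stood at 36.2 to 38.0 CPM in the MTA1 group and 49.2 to 55.1 CPM in Ctrl. COL1A1 averaged 16.4 CPM in the MTA1 group and 31.6 CPM in Ctrl, LUM averaged 13.9 CPM in the MTA1 group and 12.6 CPM in Ctrl, none of the 6 markers was at 0, and their part in the results was not tested.

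Most pore and transport genes differed between the groups by little, and most of all genes tested differed too. Of the 58, 56 had enough counts to be tested, and 24 rose and 12 fell at an adjusted p under 0.05. That is 64.3% of the 56, against 58.1% of all 15423 genes tested. By direction, 42.9% of the members rose, against 29.5% of all genes, and 21.4% fell, against 28.6%. A call with a log2 fold change of at least 0.5 in size (1.41-fold) was made for 4 members, or 7.14%, against 24.4% of all genes. The median absolute log2 fold change was 0.19 over the members and 0.29 over all genes tested, and the members were the more deeply counted, with a median of 43.3 CPM against 9.19 CPM. Their signed median was 0.07, against 0.002 for all genes. For 38 members the 3 MTA1 libraries all lay above or all below the 3 Ctrl libraries, which is 67.9%, against 62.7% of all genes (32.1% higher and 30.6% lower in the MTA1 group). The split of 24 higher to 12 lower depended on the scaling. It was 30 to 6 when libraries were scaled by their size alone, 29 to 3 on either FPKM scale and 19 to 16 once a trend with gene length was removed. Over 18 alternative settings, 17 of the 24 rises and 3 of the 12 falls (NUP210, NUP62CL and NUP50) passed every time. The other 9 falls, those of NUP85, NUP43, NUP54, NUP42, IPO9, TNPO3, XPOT, RCC1 and RANBP1, missed the threshold on both FPKM scales.

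Summed over the genes, nucleoporins reached 1674, 1684 and 1724 CPM in the MTA1 replicates, against 1600, 1633 and 1625 CPM in Ctrl. Import and export receptors reached 1740, 1720 and 1744 CPM in the MTA1 replicates, against 1613, 1609 and 1586 CPM in Ctrl. The 5 genes of the Ran system reached 1558, 1527 and 1579 CPM in the MTA1 replicates, against 1606, 1629 and 1656 CPM in Ctrl. The first pair of sums was higher and the last sum lower in every MTA1 library. All sums were TMM-scaled, and sums under other scalings were not computed. RANBP1 held the largest part of the Ran sum, averaging 818.8 CPM in the MTA1 group and 900.4 CPM in Ctrl. With library size alone RANBP1 was not called (log2 fold change -0.07), while RAN (0.12) and RANGAP1 (0.16) passed as higher. Bulk RNA cannot tell fewer cells of a kind from less RNA per cell.

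**Figure D1:**
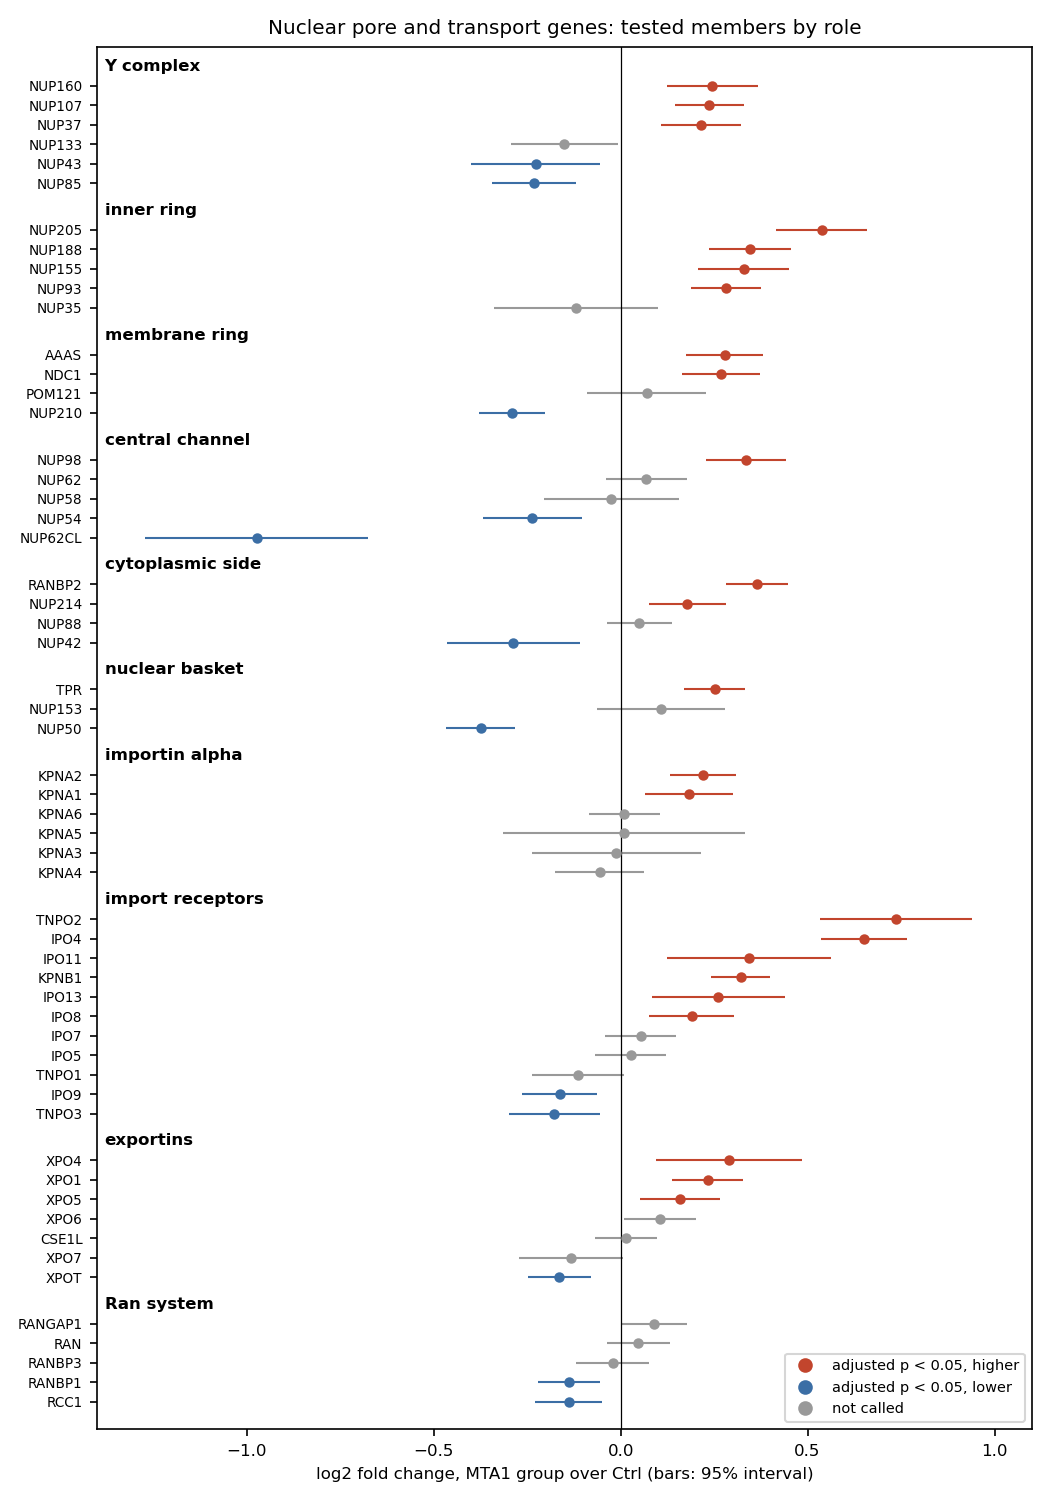
Log2 fold change of the MTA1 group over Ctrl (x axis) for the 56 tested genes, grouped by role and ordered within each role, with 95% intervals as bars. Red points passed as higher (24), blue points passed as lower (12) and grey points were not called (20). Every role except the Ran system holds at least 1 red point, and 4 points lie beyond 0.5 on either side.

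The 4 genes past 1.41-fold were the import receptors TNPO2 and IPO4, the inner ring scaffold protein NUP205 and NUP62CL. The 250 bases before their RefSeq transcription starts (GRCh38.p14) are shown, since these are the members whose messages differed most. Capitals mark matches, on either strand, to 7 short motifs searched in the window: the CCAAT box CCAAT, the GC box GGGCGG, the ETS core CCGGAAG, the E-box CACGTG, the E2F motif TTTNGCGC, the NRF1 palindrome (given by name) and the YY1 motif AAGATGGCG.
TNPO2, chr19:12723933-12724182, minus strand: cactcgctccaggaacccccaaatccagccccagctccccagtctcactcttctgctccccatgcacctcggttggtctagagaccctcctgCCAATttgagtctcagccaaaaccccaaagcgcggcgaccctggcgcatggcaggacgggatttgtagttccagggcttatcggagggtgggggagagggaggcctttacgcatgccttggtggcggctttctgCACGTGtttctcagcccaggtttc
IPO4, chr14:24188817-24189066, minus strand: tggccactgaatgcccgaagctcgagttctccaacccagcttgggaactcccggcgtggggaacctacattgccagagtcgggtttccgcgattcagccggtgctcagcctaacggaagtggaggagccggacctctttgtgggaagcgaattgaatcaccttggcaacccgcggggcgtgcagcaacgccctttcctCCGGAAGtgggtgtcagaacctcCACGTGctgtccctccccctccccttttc
NUP205, chr7:135557667-135557916, plus strand: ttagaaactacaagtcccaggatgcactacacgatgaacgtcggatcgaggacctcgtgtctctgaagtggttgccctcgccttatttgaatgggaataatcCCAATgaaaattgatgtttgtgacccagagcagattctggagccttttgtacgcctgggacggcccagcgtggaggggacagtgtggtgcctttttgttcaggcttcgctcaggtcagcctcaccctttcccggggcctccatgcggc
NUP62CL, chrX:107206434-107206683, minus strand: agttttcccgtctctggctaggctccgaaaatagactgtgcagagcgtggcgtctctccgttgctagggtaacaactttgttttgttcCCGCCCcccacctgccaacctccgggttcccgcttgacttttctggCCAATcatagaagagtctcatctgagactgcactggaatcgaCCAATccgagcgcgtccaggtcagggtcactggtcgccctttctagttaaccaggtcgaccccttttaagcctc
A CCAAT box stood in 3 of the 4 windows, and IPO4 had none. TNPO2 held a CCAAT box and an E-box, IPO4 an ETS core and an E-box, NUP205 a single CCAAT box, and NUP62CL 2 CCAAT boxes and a GC box. Promoters of 51 members were found in the table, along with those of 9541 tested protein-coding genes. An E-box was present in 13.7% of the members' windows and 9.13% of all, a CCAAT box in 43.1% and 35.6%, an ETS core in 27.5% and 16.7%, and a GC box in 52.9% and 68.7%. The NRF1 motif was found in 7.84% of the members' windows, in those of NUP107, NUP62, NUP50 and RANBP3, and in 2.04% of all. E2F matches stood in 3.92% and 2.61%, and YY1 matches in 1.96% and 1.08%. These shares describe letters in a fixed window and not binding.

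The counts of each role below stand against shares over all genes tested, of which 29.5% rose and 28.6% fell. The Y complex, which forms the outer rings of the scaffold, was split. Of its 6 genes among the members, 3 rose and 2 fell. Its other subunits SEC13, SEH1L and AHCTF1 fall outside the name rule and are counted with the further pore genes. AHCTF1 rose (0.35 ± 0.044), while SEH1L (0.15) and SEC13 (-0.08) were not called. NUP107, a core subunit with the highest CPM of the 6, had 63.9, 63.2 and 62.9 CPM in the MTA1 replicates, against 52.8, 53.2 and 55.3 CPM in the Ctrl replicates (log2 fold change 0.24 ± 0.044, adjusted p = 0.00011). All its MTA1 libraries were above all Ctrl libraries. NUP160 (0.25 ± 0.058) and NUP37 (0.21 ± 0.051) rose with it, each without overlap. NUP85, a short-arm subunit that binds SEH1L, had 40.1, 41.4 and 46.2 CPM in the MTA1 replicates, against 48.2, 51.3 and 50.4 CPM in the Ctrl replicates (log2 fold change -0.23 ± 0.054, adjusted p = 0.0011), and its MTA1 libraries were all below the Ctrl libraries. NUP43 (-0.23 ± 0.082), a small beta-propeller subunit, fell too, but missed the threshold under several alternatives, such as leaving out Ctrl replicate 2 (adjusted p = 0.076), MTA1 replicate 2 (0.097) or MTA1 replicate 3 (0.092). NUP133 was not called (-0.15, 95% interval -0.29 to -0.01), but was called lower when Ctrl replicate 2 was dropped (-0.22, adjusted p = 0.015), when MTA1 replicate 1 was dropped (-0.21, adjusted p = 0.015) and after removal of the length trend (-0.21). On the FPKM scale, which divides by gene length, the 6 messages ranged from 1.76 FPKM in the MTA1 group and 1.97 FPKM in Ctrl for NUP43 to 8.96 FPKM in the MTA1 group and 7.37 FPKM in Ctrl for NUP37 and 7.42 FPKM in the MTA1 group and 8.31 FPKM in Ctrl for NUP85.

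Of the 5 inner ring genes, 4 rose and none fell. NUP205, the large scaffold protein of this ring, had 36.6, 35.8 and 39.6 CPM in the MTA1 replicates, against 25.5, 27.5 and 24.1 CPM in the Ctrl replicates (log2 fold change 0.54 ± 0.058, adjusted p = 1.4e-07). The lowest MTA1 library lay well above the highest Ctrl library. NUP93, which anchors the channel nucleoporins and is the most abundant of the ring's messages, had 77.1, 76.9 and 75.0 CPM in the MTA1 replicates, against 60.6, 65.4 and 62.4 CPM in the Ctrl replicates (log2 fold change 0.28 ± 0.044, adjusted p = 1.8e-05). NUP188 (0.35 ± 0.052), the paralog of NUP205 in structure, and NUP155 (0.33 ± 0.058), which touches the membrane, rose as well, and none of these 4 overlapped between groups. NUP35, a membrane-binding subunit and by far the least abundant on the FPKM scale (1.27 FPKM in the MTA1 group and 1.31 FPKM in Ctrl), was not called (-0.12, 95% interval -0.34 to 0.10). The 4 rises passed under every alternative run.

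Of the 4 membrane ring genes tested, 2 rose and 1 fell. NUP210, a glycoprotein with a single membrane span, had 340.2, 349.5 and 375 CPM in the MTA1 replicates, against 431, 440.5 and 431 CPM in the Ctrl replicates (log2 fold change -0.29 ± 0.042, adjusted p = 6e-06). Its MTA1 libraries all lay below its Ctrl libraries. It was the highest of the nucleoporins on the FPKM scale, at 39.2 FPKM in the MTA1 group and 45.7 FPKM in Ctrl, and its share of the summed FPKM of 27 nucleoporins was 20.9% in the MTA1 group and 26.1% in Ctrl. TPR, second in that sum, took 16.2% in the MTA1 group and 13.8% in Ctrl. AAAS, also called ALADIN, had 44.0, 43.5 and 45.0 CPM in the MTA1 replicates, against 37.7, 34.7 and 37.0 CPM in the Ctrl replicates (log2 fold change 0.28 ± 0.050, adjusted p = 7.3e-05), and NDC1, the membrane protein that holds it at the pore, rose by a like amount (0.27 ± 0.050). POM121 was not called (0.07, 95% interval -0.09 to 0.23). Its near-identical copy POM121C was counted at 21.5 CPM in the MTA1 group and 19.0 CPM in Ctrl and was called higher (0.18 ± 0.061), which was lost on dropping Ctrl replicate 3 (adjusted p = 0.071) or MTA1 replicate 3 (0.073). Reads of the 2 copies can be split between them, so both are uncertain. NUP210L, a paralog known from testis, had 1 read in each group and was not tested.

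Channel nucleoporins went both ways. NUP98, which carries glycine-leucine-phenylalanine-glycine repeats, had 33.6, 32.9 and 31.6 CPM in the MTA1 replicates, against 25.8, 26.7 and 25.2 CPM in the Ctrl replicates (log2 fold change 0.34 ± 0.051, adjusted p = 1.3e-05), without overlap. The trimer of NUP62, NUP58 and NUP54, which lines the channel with its repeats, did not move as one. NUP54 fell (-0.24 ± 0.063, adjusted p = 0.0034), NUP58 was not called (-0.03, 95% interval -0.21 to 0.16), and NUP62 was not called either (0.07, 95% interval -0.04 to 0.18), although its 3 MTA1 libraries lay just above its Ctrl libraries. NUP62CL, a gene on chromosome X related to the end of NUP62 and without a settled role at the pore, had the largest fall of all members. It was counted at 2.89, 2.56 and 2.19 CPM in the MTA1 replicates, against 5.47, 4.06 and 5.47 CPM in the Ctrl replicates (log2 fold change -0.97 ± 0.14, adjusted p = 7.6e-06), or 50.9% of the Ctrl level. These levels rest on 68 to 88 reads per library in the MTA1 group and 133 to 180 in Ctrl.

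On the cytoplasmic side, RANBP2, a giant protein with repeats and Ran-binding domains that receives exported cargo, had 126, 128 and 123 CPM in the MTA1 replicates, against 99.0, 96.2 and 97.9 CPM in the Ctrl replicates (log2 fold change 0.36 ± 0.040, adjusted p = 1.6e-07). The groups did not overlap. Its partial copies RGPD1 to RGPD6 and RGPD8 had at most 30 reads in any library, but the treatment of reads shared with them is not given in the sources used here. NUP214, which forms a complex with NUP88, rose slightly (0.18 ± 0.049), and this call ended when the trend with gene length was removed (0.09, adjusted p = 0.13). NUP88 was not called (0.05, 95% interval -0.04 to 0.14). NUP42, which helps to release exported mRNA, had 8.86, 7.95 and 8.12 CPM in the MTA1 replicates, against 10.8, 9.04 and 10.6 CPM in the Ctrl replicates (log2 fold change -0.29 ± 0.085, adjusted p = 0.0068), and its MTA1 libraries were the lower.

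The nuclear basket showed opposite changes in its abundant subunits. TPR, the coiled-coil protein that makes the basket's fibres, had 404, 413 and 422 CPM in the MTA1 replicates, against 339, 346 and 355 CPM in the Ctrl replicates (log2 fold change 0.25 ± 0.039, adjusted p = 1.5e-05). NUP50, a mobile nucleoporin that helps to release cargo from importin alpha, had 49.1, 51.8 and 49.9 CPM in the MTA1 replicates, against 64.9, 64.3 and 66.3 CPM in the Ctrl replicates (log2 fold change -0.37 ± 0.045, adjusted p = 5.2e-07). Both were without overlap between the groups and kept their calls under every alternative. NUP153, which ties the basket to the nuclear ring, was not called (0.11, 95% interval -0.06 to 0.28). The long non-coding RNAs named for 2 of these genes were both lower. NUP50-DT, the divergent transcript of NUP50, had 10.5, 10.00 and 10.4 CPM in the MTA1 replicates, against 12.7, 13.1 and 12.7 CPM in the Ctrl replicates (log2 fold change -0.32 ± 0.068, adjusted p = 0.00051), and NUP153-AS1 had 8.66, 7.44 and 6.86 CPM in the MTA1 replicates, against 10.8, 11.3 and 11.3 CPM in the Ctrl replicates (log2 fold change -0.54 ± 0.085, adjusted p = 1.7e-05). Whether the counting used strand is unstated, and reads of a gene and of an antisense neighbour cannot be told apart with certainty.

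**Figure D2:**
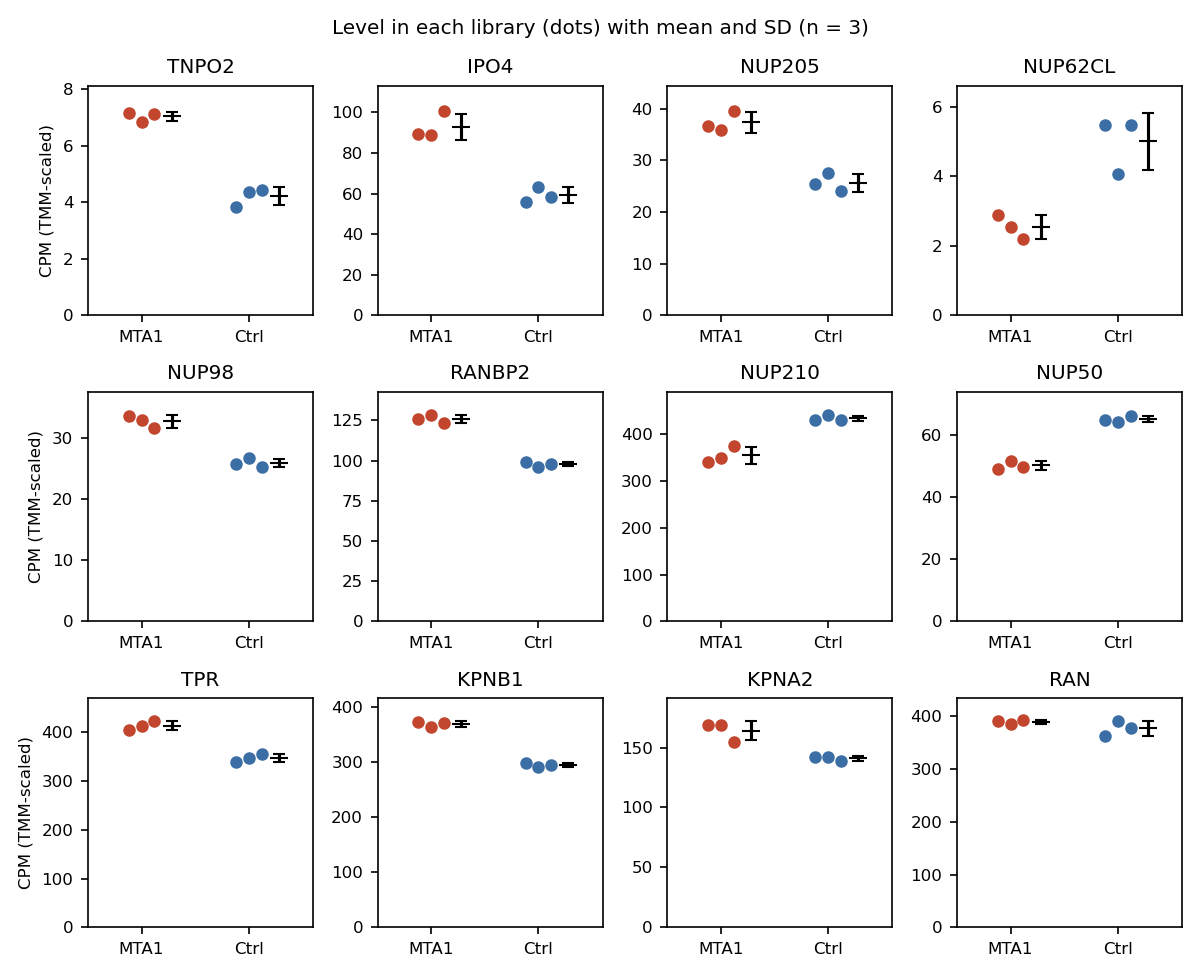
CPM (y axis, from 0) of 12 members in each library, with the MTA1 group left (red) and Ctrl right (blue), and the mean and SD of n = 3 libraries beside the points. TNPO2, IPO4, NUP205, NUP98, RANBP2, TPR, KPNB1 and KPNA2 lie higher and NUP62CL, NUP210 and NUP50 lower in the MTA1 group without overlap, while the libraries of RAN overlap.

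Of the 6 importin alpha genes tested, 2 rose and none fell. Importin alpha proteins recognise the classical import signal on cargo and link it to importin beta, the product of KPNB1. KPNB1 had 373, 363 and 371 CPM in the MTA1 replicates, against 299, 292 and 296 CPM in the Ctrl replicates (log2 fold change 0.32 ± 0.038, adjusted p = 4.2e-07), and KPNA2, the most abundant importin alpha message, had 169, 169 and 155 CPM in the MTA1 replicates, against 142, 142 and 138 CPM in the Ctrl replicates (log2 fold change 0.22 ± 0.042, adjusted p = 0.00017). Neither overlapped between groups. KPNA1 rose slightly (0.18 ± 0.056), which was lost on dropping Ctrl replicate 2 (adjusted p = 0.053) and after removal of the length trend (adjusted p = 0.1). The 4 other tested members were not called. KPNA6 stood at 0.01, 95% interval -0.09 to 0.11, KPNA4 at -0.06, 95% interval -0.17 to 0.06, KPNA3 at -0.01, 95% interval -0.24 to 0.21 and KPNA5 at 0.01, 95% interval -0.31 to 0.33. KPNA7, an oocyte form, had at most 3 reads in any library. CSE1L, which returns importin alpha to the cytoplasm, had 167, 170.5 and 177 CPM in the MTA1 replicates, against 170.5, 169.8 and 169.5 CPM in the Ctrl replicates and was not called (0.01, 95% interval -0.07 to 0.10).

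Within the summed FPKM of the 7 importin alpha genes, KPNA2 took 63.3%, 63.6% and 60.7% in the MTA1 replicates, against 59.8%, 58.7% and 59.7% in Ctrl. The difference was 3.16 percentage points (2-sided exact permutation p = 0.1, the smallest that 3 against 3 libraries allow, and 0.233 after adjustment over the 7 shares). KPNA6, the second of the family, took 20.0%, 20.2% and 21.6% in the MTA1 replicates, against 22.4%, 23.0% and 22.4% in Ctrl (exact permutation p = 0.1). KPNA4 had 5.48%, 4.87% and 5.20% in the MTA1 replicates, against 6.11%, 5.72% and 6.05% in Ctrl (exact permutation p = 0.1). The ranges of these 3 shares did not overlap, and those of the other members did. After adjustment over the 7 shares the exact permutation p was 0.233 for KPNA6 and KPNA4 too. Shares of one sum depend on each other, so the 3 differences are not separate results. The level of KPNA6 was 6.63 FPKM in the MTA1 group and 6.29 FPKM in Ctrl. That of KPNA4 was 1.67 FPKM in the MTA1 group and 1.66 FPKM in Ctrl.

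**Figure D3:**
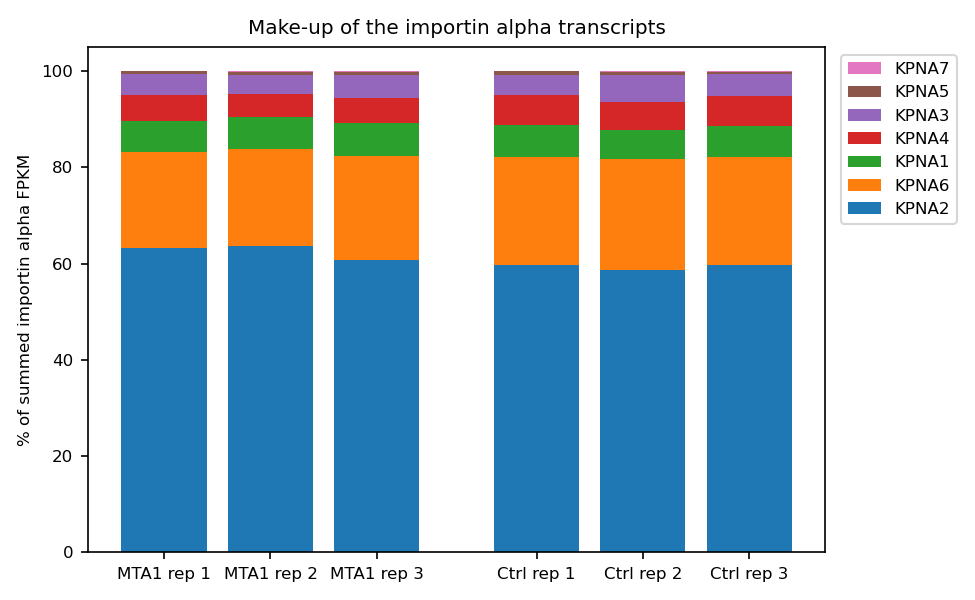
Share of each importin alpha gene in the summed FPKM of the 7 genes (y axis, percent), stacked for each library, with the MTA1 replicates left and the Ctrl replicates right. The KPNA2 block is larger in the MTA1 replicates (60.7% to 63.6%) than in Ctrl (58.7% to 59.8%).

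Of the 11 import receptors of the importin beta family, 6 rose and 2 fell. IPO4, which carries histones and ribosomal proteins, had 89.3, 88.7 and 100.4 CPM in the MTA1 replicates, against 55.6, 63.3 and 58.4 CPM in the Ctrl replicates (log2 fold change 0.65 ± 0.055, adjusted p = 4.1e-09), the smallest p of any member. The highest Ctrl library lay far below the lowest MTA1 library. TNPO2, a transportin that imports RNA-binding proteins such as hnRNP A1, had 7.15, 6.84 and 7.12 CPM in the MTA1 replicates, against 3.85, 4.37 and 4.44 CPM in the Ctrl replicates (log2 fold change 0.74 ± 0.097, adjusted p = 2e-06), without overlap and on 217 to 221 reads per library in the MTA1 group and 119 to 146 in Ctrl. Its close paralog TNPO1, which was more abundant on the FPKM scale (3.35 FPKM in the MTA1 group and 3.46 FPKM in Ctrl, with 0.907 FPKM in the MTA1 group and 0.517 FPKM in Ctrl for TNPO2), was not called (-0.11, 95% interval -0.24 to 0.01). It was called lower on dropping MTA1 replicate 1 (-0.17, adjusted p = 0.017) and after removal of the length trend (-0.20, adjusted p = 0.0057). TNPO3, the importer of serine-arginine-rich splicing factors, fell (-0.18 ± 0.058, adjusted p = 0.014), but its groups overlapped and the call ended without Ctrl replicate 1 (adjusted p = 0.1) or MTA1 replicate 3 (0.068).

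IPO9, an importer of histones and actin, had 44.1, 44.9 and 44.6 CPM in the MTA1 replicates, against 51.7, 47.5 and 50.4 CPM in the Ctrl replicates (log2 fold change -0.16 ± 0.048, adjusted p = 0.0065), all MTA1 libraries being lower. IPO8 (0.19 ± 0.054), which serves Argonaute and SMAD proteins, rose. IPO11 (0.34 ± 0.10) and IPO13 (0.26 ± 0.085), the second of which works in both directions, passed as higher. IPO11 rests on 177 to 213 reads per library in the MTA1 group and 138 to 183 in Ctrl, and its call ended without Ctrl replicate 1 (adjusted p = 0.059). IPO13 rests on 265 to 304 reads per library in the MTA1 group and 217 to 274 in Ctrl, and its call ended without Ctrl replicate 1 (adjusted p = 0.079) or MTA1 replicate 2 (0.056) and with DESeq2 (0.051). In the annotation IPO11 shares 428 of its 7540 exonic bases with KIF2A on the same strand. IPO4 shares 3470 of its 5007 exonic bases, also on the same strand, with AL136295.4, which had 108 reads in all libraries. How reads in shared exons were counted is not given, so the counts of IPO11 and IPO4 are uncertain. IPO5 (0.03, 95% interval -0.07 to 0.12) and IPO7 (0.05, 95% interval -0.04 to 0.15), abundant importers of ribosomal proteins among other cargo, were not called.

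Exportins were mixed. XPO1, also called CRM1, the main exporter of proteins with leucine-rich signals, had 76.4, 77.1 and 83.0 CPM in the MTA1 replicates, against 65.7, 69.0 and 66.7 CPM in the Ctrl replicates (log2 fold change 0.23 ± 0.046, adjusted p = 0.00021), with the MTA1 libraries all higher. XPOT, which exports tRNA, had 126, 127 and 131 CPM in the MTA1 replicates, against 144, 147 and 139.6 CPM in the Ctrl replicates (log2 fold change -0.16 ± 0.040, adjusted p = 0.0015), with the MTA1 libraries all lower. XPO5, the exporter of microRNA precursors (0.16 ± 0.051), and XPO4 (0.29 ± 0.094) passed as higher. The call of XPO5 ended without Ctrl replicate 2 (adjusted p = 0.084), and that of XPO4 without MTA1 replicate 2 (0.082) and with DESeq2 (0.054). Both also ended after removal of the length trend. XPO6, the exporter of actin, was not called (0.11, 95% interval 0.01 to 0.20), nor was XPO7 (-0.13, 95% interval -0.27 to 0.01).

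In the Ran system none of the 5 genes rose and 2 fell. RANBP1, which helps RANGAP1 to turn off Ran at the cytoplasmic side, had 818, 797 and 841 CPM in the MTA1 replicates, against 888, 892 and 921 CPM in the Ctrl replicates (log2 fold change -0.14 ± 0.040, adjusted p = 0.0058). RCC1, the chromatin-bound exchange factor of Ran, had 154, 148 and 141 CPM in the MTA1 replicates, against 168, 160.0 and 159 CPM in the Ctrl replicates (log2 fold change -0.14 ± 0.042, adjusted p = 0.0083). In both genes the MTA1 libraries were all lower. RAN itself had 392, 385 and 392 CPM in the MTA1 replicates, against 363, 392 and 378 CPM in the Ctrl replicates. These libraries overlapped and the gene was not called (0.05, 95% interval -0.04 to 0.13). RANGAP1 (0.09, 95% interval 0.001 to 0.18) and RANBP3 (-0.02, 95% interval -0.12 to 0.08), a cofactor of XPO1, were not called, though RANGAP1 passed as higher without Ctrl replicate 3 (0.12, adjusted p = 0.035). Both falls depended on the scaling. With library size alone RANBP1 stood at -0.07 (adjusted p = 0.14) and RCC1 at -0.07 (0.15), while RAN (0.12, adjusted p = 0.019) and RANGAP1 (0.16, 0.0033) passed as higher. RCC1 shares 242 exonic bases on its own strand with the RNA host gene SNHG3, which rose, with 59.8, 56.0 and 58.5 CPM in the MTA1 replicates, against 40.3, 39.2 and 39.5 CPM in the Ctrl replicates (log2 fold change 0.55 ± 0.047, adjusted p = 4.4e-09). The copies RANBP1P1 and RANP1 had at most 54 and 5 reads in any library. Several members overlap exons of expressed genes on the opposite strand. NUP43 shares 223 bases with PCMT1, NUP62 626 with ATF5, NUP88 520 with RPAIN and 468 with RABEP1, and TPR 670 with PRG4. POM121 shares 1849 with NSUN5P2, XPO5 348 with POLR1C and RANBP1 393 with TRMT2A. NUP153 shares 558 with AL138724.1, and KPNA4 142 with KRT8P12. What share of their counts comes from these neighbours was not tested.

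Levels per exonic length differed widely among the members. RANBP1 was highest at 160.3 FPKM in the MTA1 group and 168 FPKM in Ctrl, followed by RAN at 75.6 FPKM in the MTA1 group and 69.8 FPKM in Ctrl. Next in Ctrl were NUP210, CSE1L, RCC1, KPNB1 and TPR, between 45.7 and 24.2 FPKM, and in the MTA1 group the order of these 5 was CSE1L, NUP210, RCC1, KPNB1 and TPR, between 40.9 and 30.2 FPKM. CSE1L (40.9 ± 1.51 FPKM in the MTA1 group and 38.6 ± 0.276 FPKM in Ctrl) and NUP210 (39.2 ± 2.22 FPKM in the MTA1 group and 45.7 ± 0.934 FPKM in Ctrl) had overlapping ranges in the MTA1 group, where CSE1L was the higher in each of the 3 libraries. KPNB1, at 32.4 ± 0.567 FPKM in the MTA1 group and 24.7 ± 0.115 FPKM in Ctrl, and TPR, at 30.2 ± 0.866 FPKM in the MTA1 group and 24.2 ± 0.625 FPKM in Ctrl, overlapped in Ctrl but not in the MTA1 group, where KPNB1 was the higher in each library. At the low end, KPNA5, XPO4, TNPO2, IPO11, NUP58 and POM121 stood under 1 FPKM in both groups.

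**Figure D4:**
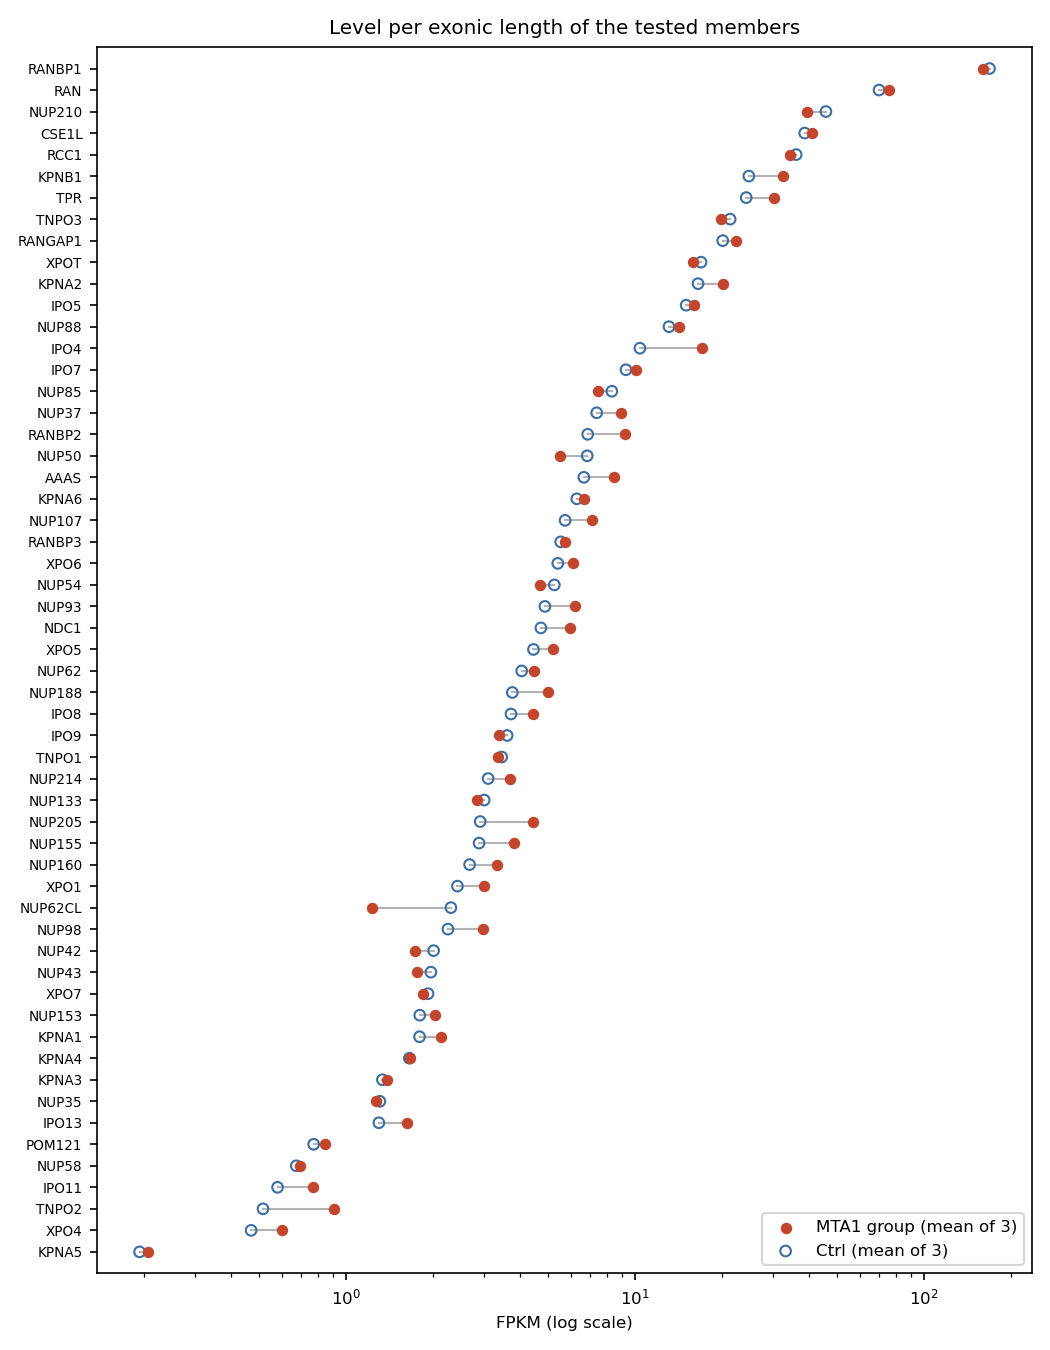
Mean FPKM (x axis, log scale) of the 56 tested members in the MTA1 group (filled red) and Ctrl (open blue), means of 3 libraries, ordered by the Ctrl level. The members run from KPNA5 (0.207 FPKM in the MTA1 group and 0.193 FPKM in Ctrl) to RANBP1 (160.3 FPKM in the MTA1 group and 168 FPKM in Ctrl), and the widest gaps between the symbols are those of NUP62CL, TNPO2 and IPO4.

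Gene length moved with the signed change. Across the 56 members the signed log2 fold change correlated with the logarithm of exonic length (Pearson r = 0.387, Spearman rho = 0.324), and across 12106 tested protein-coding genes less so (0.15 and 0.176). All points come from the same 6 libraries, and genes are not independent replicates. The median exonic length, as derived from counts over FPKM, was 9379 bases for the 24 members that rose and 5256 bases for the 12 that fell. It was 8303 bases for the 56 and 5758 bases for all coding genes tested. These lengths are approximate and ran above annotated exonic bases in members with exon overlaps. NUP160 had 9702 derived and 8576 annotated bases, and XPO1 had 26954 and 11708. After a smooth trend of level with length was removed from each library, 19 members passed as higher and 16 as lower. NUP205 (0.47), IPO4 (0.62), TNPO2 (0.67), NUP210 (-0.36), NUP50 (-0.45) and NUP62CL (-0.86) kept their calls, while IPO8 (0.13), KPNA1 (0.11), NUP214 (0.09), XPO4 (0.21) and XPO5 (0.08) lost them and NUP133 (-0.21), TNPO1 (-0.20), XPO7 (-0.20) and KPNA4 (-0.15) passed as lower. How far length itself, or features that go with it, bears on these differences was not tested further.

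**Figure D5:**
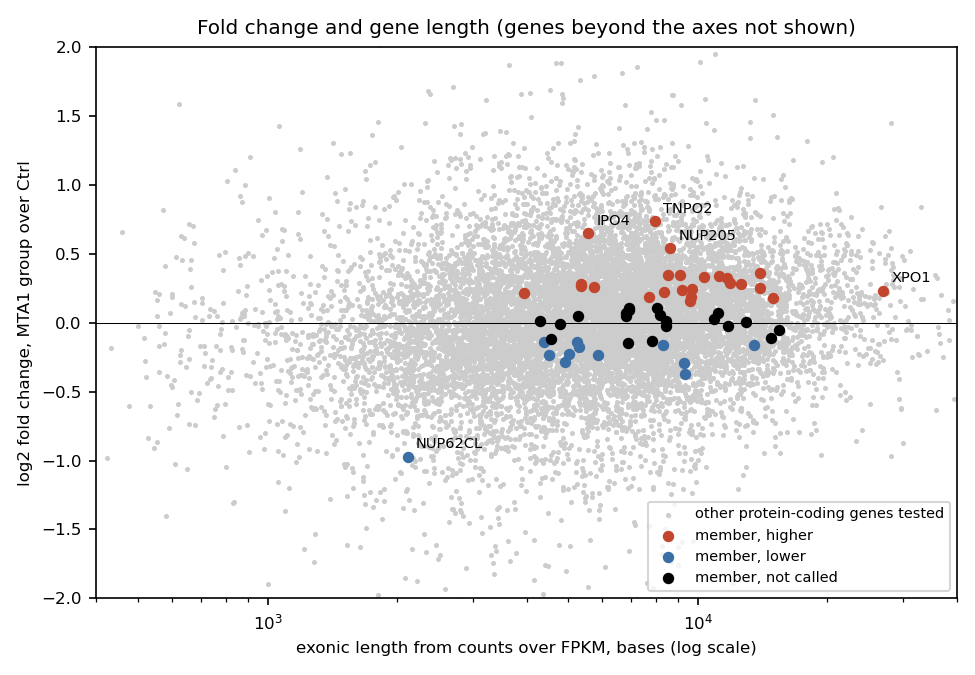
Log2 fold change of the MTA1 group over Ctrl (y axis) against exonic length derived from counts over FPKM (x axis, log scale) for tested protein-coding genes (grey) and the 56 members, coloured by call. Members called lower (median 5256 bases) lie mostly left of those called higher (median 9379 bases).

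Other genes of the pore and of nuclear traffic gave a background to the members. Of 7 further pore genes, 2 rose and 2 fell (median 0.0087 on the log2 scale). That is 57.1% called, against 58.1% of all genes tested. AHCTF1, also called ELYS, which seeds pore assembly on chromatin after mitosis, had the smallest p of those that rose, with 187, 187 and 169.9 CPM in the MTA1 replicates, against 146, 139.7 and 140.2 CPM in the Ctrl replicates (log2 fold change 0.35 ± 0.044, adjusted p = 1e-06), and POM121C was the other. TMEM33 (-0.19 ± 0.068) and RAE1 (-0.14 ± 0.053), an mRNA export factor of the pore, passed as lower, and those calls ended, among others, without Ctrl replicate 1 (adjusted p = 0.12 for TMEM33 and 0.06 for RAE1).

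The 24 mRNA export genes held 6 that rose and 11 that fell (median log2 fold change -0.07). By share, 25% rose and 45.8% fell, against 29.5% and 28.6% of all genes tested. RAE1 and GLE1 stand both in this list and among the further pore genes. SARNP, a partner of the TREX export complex, had 395, 394 and 396 CPM in the MTA1 replicates, against 586, 581 and 593 CPM in the Ctrl replicates (log2 fold change -0.57 ± 0.037, adjusted p = 9.9e-11), and THOC7, a TREX subunit, fell as well (-0.47 ± 0.040). DDX39B, the helicase that loads export factors on mRNA, had 223, 216 and 219.9 CPM in the MTA1 replicates, against 165, 172 and 161 CPM in the Ctrl replicates (log2 fold change 0.40 ± 0.040, adjusted p = 4.2e-08), and THOC2, the largest TREX subunit, rose (0.18 ± 0.045). The call of THOC2 ended after removal of the length trend (0.10, adjusted p = 0.057), where 4 genes of this list passed as higher and 10 as lower. The central export receptor NXF1, chosen after its value was seen, was not called (0.002, 95% interval -0.14 to 0.15). Among 14 Ran and cargo helpers, 3 rose and 3 fell (median -0.05). That is 42.9% called, against 58.1% of all genes tested. PHAX, the adaptor that exports small nuclear RNA, had 61.7, 63.0 and 61.2 CPM in the MTA1 replicates, against 86.0, 83.3 and 83.6 CPM in the Ctrl replicates (log2 fold change -0.44 ± 0.042, adjusted p = 2.3e-08), and RCC2, a relative of RCC1, fell too (-0.41 ± 0.051). RANBP6 (0.42 ± 0.10) and RANBP10 (0.31 ± 0.096) rose, and the call of RANBP10 ended after removal of the GC and length trends (0.19, adjusted p = 0.089).

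Of 19 nuclear envelope genes tested, 8 rose and 2 fell (median 0.14), and 3 passed 1.41-fold. By share, 42.1% rose, 10.5% fell and 15.8% passed 1.41-fold, against 29.5%, 28.6% and 24.4% of all genes tested. SUN2, which joins the lamina to the cytoskeleton across the envelope, had 55.4, 56.5 and 54.4 CPM in the MTA1 replicates, against 31.3, 35.5 and 34.0 CPM in the Ctrl replicates (log2 fold change 0.72 ± 0.052, adjusted p = 3.4e-10), and TMEM43, a membrane protein of the inner envelope, had 61.5, 66.2 and 63.9 CPM in the MTA1 replicates, against 39.1, 40.3 and 35.4 CPM in the Ctrl replicates (log2 fold change 0.74 ± 0.053, adjusted p = 3.2e-10). SYNE3, a nesprin that pairs with SUN proteins, had 12.6, 14.0 and 16.3 CPM in the MTA1 replicates, against 5.92, 6.60 and 6.14 CPM in the Ctrl replicates (log2 fold change 1.20 ± 0.093, adjusted p = 1.2e-09) and was chosen after its values were seen. All 3 were without overlap between groups. TOR1AIP2 (-0.45 ± 0.054), which activates torsin ATPases, and EMD (-0.16 ± 0.055), the lamina-bound protein emerin, fell. The call of EMD ended without Ctrl replicate 3 (adjusted p = 0.061) or MTA1 replicate 2 (0.13).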

How the data were processed

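Stranded total RNA libraries of PC-3 cells (SMARTer kit, paired reads, NovaSeq) were made per the labels' protocols. The authors deposited whole-number counts per gene without normalization, and FPKM values that the authors divided by gene length and depth. The submitters' processing notes name DESeq2 with no role. For the aligner, counting tool, strand setting, build and annotation, the sources used here give nothing. Columns headed shMTA1 were assigned to MTA1 by name, and the remaining NC columns to Ctrl.

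Of 30651 genes, 15423 passed filterByExpr and entered one fit. They were scaled with TMM and tested with edgeR 4.0.16 (quasi-likelihood F test, R 4.3.3), with Benjamini-Hochberg adjustment over these genes and a threshold of 0.05. The biological coefficient of variation was 4.45%. Alternatives used DESeq2 1.42.0, limma 3.58.1 on counts or on log2(FPKM + 0.1) and log2(FPKM + 1), other scalings and filters, a replicate block, each library left out, and loess offsets (span 0.5) for length or for GC and length. The last was chosen after seeing the data. Exonic length was derived from counts over FPKM, with summed gene counts as depth. GC content and exon overlaps came from GENCODE annotation. The offset for length used the derived length, and that for GC and length used the longest annotated transcript of each gene. The edgeR fit was tested on simulated counts, with recovery required only at fold changes larger than that of any member. The use of an offset was tested there with a known trend, and the loess estimate of the trend was not tested. With 29909172 to 33849262 counts per library, intervals cover the spread between libraries only.

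The members and lists were chosen with earlier results of these data known. In each role, per-library values are given for the member with the smallest p in each direction, that with the highest mean CPM and those called with an absolute log2 fold change of at least 0.5. From each related list the 2 genes with the smallest p in each direction are named. Some marker genes of the line are not reported here.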

Additional observations from a re-analysis of the deposited data

How the results depend on the processing

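The fall of MTA1 kept its call in every setting, and it ran from -1.24 to -1.18 with 1 library left out. With each library left out, 22 to 25 members passed as higher and 10 to 14 as lower, and their median log2 fold change ran from 0.0492 to 0.0895. Other pore genes then gave 1 to 3 higher and 1 to 2 lower, and nuclear envelope genes 1 to 3 lower. The number of lower members was 6 by library size alone and 3 on both FPKM scales. Other pore genes had 0 lower calls and nuclear envelope genes 1 in these 3 settings. Other pore genes had 1 higher call with DESeq2 and after removal of the length trend or of the GC and length trends, and nuclear envelope genes had 4 lower calls after removal of the length trend. The members' median was 0.138 by library size, 0.0762 with no filter on low counts, 0.126 on log2(FPKM + 0.1), 0.112 on log2(FPKM + 1), 0.0239 without the length trend and 0.0374 without the GC and length trends. With GC and length removed, 21 members were higher and 15 lower. The KPNA4 share differed by -1.33 percentage points on CPM, against -0.78 on FPKM. The cause of these shifts was not tested. TMM factors were 1.02 to 1.026 in the MTA1 group and 0.9726 to 0.9827 in Ctrl. Neither the library-size setting nor the FPKM settings used them.

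Among the members, only those that were not called changed sign. By library size, log2(FPKM + 0.1) and log2(FPKM + 1) these were NUP58 (0.043, 0.034 and 0.017), KPNA3 (0.057, 0.060 and 0.036), KPNA4 (0.012, 0.0093 and 0.0065) and RANBP3 (0.047, 0.045 and 0.039). Without the length trend they were POM121 (-0.0076), NUP88 (-0.0035), KPNA5 (-0.075), KPNA6 (-0.059), IPO5 (-0.051) and IPO7 (-0.013), and without the GC and length trends POM121 (-0.068), NUP62 (-0.020), KPNA6 (-0.077), IPO5 (-0.0076) and RANGAP1 (-0.017). With each library left out in turn, KPNA6 ran from -0.016 to 0.032, IPO5 from -0.015 to 0.053, KPNA3 from -0.093 to 0.12, KPNA5 from -0.14 to 0.097, RANBP3 from -0.041 to 0.0092, NUP58 from -0.082 to 0.051 and CSE1L from -0.0085 to 0.036.

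Same-numbered libraries of the groups showed little shared deviation, with correlations of 0.0666, -0.0207 and 0.0191. These values cannot show whether such libraries were prepared together, which the labels do not say. With the replicate number as a block, 25 members passed as higher and 14 as lower. KPNA5 and NUP62CL, which had the fewest reads of the members tested, had the widest intervals, and smaller differences in them were not detectable at this depth.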
